A study of Mus musculus with 2 samples.

Results

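Constitutively strong CTCF sites are described here: regions bound at high score both in neural precursor cells (NPC) and in the embryonic stem cells (ESC) they came from. A site was taken when an NPC peak and an ESC peak on the autosomes overlapped each other and no other peak by at least 1 bp, and when each peak's score lay in the top 10% of its own list. This gave 2447 strong pairs out of 38591 autosomal pairs that matched 1-to-1 (6.34%). The remaining 36144 pairs are called the other pairs below. The members were thus chosen by their NPC and ESC peak scores, so score levels describe them and test nothing.

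CTCF is a zinc-finger protein that binds a long, asymmetric DNA motif. On chromatin it can halt the ring-shaped cohesin complex as it extrudes a loop, and pairs of CTCF sites with motifs pointing towards each other are known as typical loop anchors. Many CTCF sites lie at borders between topologically associating domains, and occupancy is known to be shared widely between cell types, most of all at sites with strong binding. The files hold peak positions and scores but no motif orientation, so which sites face each other was not analysed here.

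The series holds 1 library per cell type, both made with an antibody against CTCF from Millipore. NPC were derived from E14 ESC and grown on gelatin with basic FGF, EGF and N2 supplement. The ESC, line E14Tg2A (IB10), were kept in conditioned medium with serum and leukemia inhibitory factor. The labels name no genetic change in either sample, and no gene that marks either cell type can be checked in peak lists. With 1 culture each, no test between cell types was possible, no p-value is given, and "constitutive" means no more than strong in these libraries.

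The NPC list had 51421 peaks and a limit of 1396 for its top 10%, while the ESC list had 54151 peaks and a limit of 1514. The score is the deposited value per peak, and its definition is not given in the sources used here. It is used only to rank peaks within a list. Scores piled up at 3100, and 255 NPC peaks and 222 ESC peaks reached at least that value. The reason for the pile-up is not given, so the order of peaks at or above 3100 may not reflect their strength. Sequencing depth is unknown for both lists. Intervals given below are 95% intervals that cover counting error over sites only and treat neighbouring sites as independent.

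Somewhat under 50% of the strongest peaks of either cell type were part of a strong pair. Of 5143 top NPC peaks, 2447 (47.6%, 46.2 to 49.0) were members. A further 2546 (49.5%, 48.1 to 50.9) had a single ESC partner that fell short of the ESC limit. Only 18 (0.350%, 0.208 to 0.553) of the top NPC peaks lay on autosomes without any ESC overlap. Of 5417 top ESC peaks, 2447 (45.2%, 43.8 to 46.5) were members and 2684 (49.5%, 48.2 to 50.9) had a single NPC partner below the NPC limit. On autosomes 29 of them (0.535%, 0.359 to 0.768) had no overlap. Thus nearly all strong autosomal peaks were called in both libraries, and what divided most of the rest from members was the rank of the partner. Another 122 NPC and 251 ESC top peaks sat in overlaps that were not 1-to-1, and the standing of their partners was not counted.

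Among the pairs themselves, 12.9% had an NPC peak in its top 10% and 13.3% an ESC peak in its top 10%. The product of these shares over all pairs would give 664 pairs strong on both sides, and the 2447 members were 3.69 times that number. This follows from the scores that chose the members and is given as a description. The joint share depended on the limit. At the top 20% of each list, 6098 pairs were strong in both, which was 61.4% of the strong NPC pairs and 58.7% of the strong ESC pairs. At the top 5% there were 998 (40.0% and 40.0%), and at the top 1% there were 195 (39.2% and 42.6%).

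Members covered the whole upper range of both score scales. NPC scores of members ran from 1396 to 3233 with a median of 1875 and an interquartile range of 1620 to 2352. ESC scores ran from 1515 to 3230 with a median of 1892 and an interquartile range of 1680 to 2274. Both peaks were at or above 3100 in 93 members (3.80%, 3.08 to 4.64), and 234 NPC and 170 ESC peaks of members reached that value. Across members, Spearman's rho between the NPC and ESC scores was 0.36 (n = 2447), against 0.55 across the other pairs (n = 36144). The member range is cut at both limits, and these are correlations across sites within the same pair of libraries.

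The limit separates pairs that hardly differ in score. Just inside it was a pair on chromosome 2, whose NPC peak (mm9, 26156149 to 26156721) scored 1396.26 and whose ESC peak (26156154 to 26156805) scored 1562.66. A pair on chromosome 7 had an NPC score of 1843.83 and was let in by an ESC score of 1514.89 (146776018 to 146776702), and one on chromosome 6 by an NPC score of 1396.44 (113377272 to 113377777). Just outside were a pair on chromosome 5 with an NPC score of 1396.04 (125052196 to 125052840), a pair on chromosome 1 with an ESC score of 1513.91 (39993179 to 39993960) and a pair on chromosome 2 with an NPC score of 1395.58 (151756073 to 151756517). The last had an ESC score of 2029.26, well within the strong range of that list.

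The best-ranked member of each autosome was taken by the worse of its ranks in both lists. On chromosome 2 this was a site with an NPC peak from 77179871 to 77180612 (score 3223, rank 3) and an ESC peak from 77179818 to 77180649 (score 3100). The centres of these peaks were 8 bp apart, and the nearest other member lay 1357 kb away. On chromosome 16 the NPC peak from 21412550 to 21413231 scored 3222 (rank 4), the ESC peak from 21412523 to 21413461 scored 3100, and the centres were 101.5 bp apart. Centre agreement thus differed between sites of nearly equal score.

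On chromosome 12 the NPC peak from 101439883 to 101440514 scored 3168 and the ESC peak from 101439829 to 101440603 scored 3100. Chromosome 3 had the widest of these best-ranked sites, with an NPC peak of 1433 bp (96081297 to 96082729, score 3123) and an ESC peak of 1395 bp (96081323 to 96082717, score 3100), and another member 9.41 kb away. On chromosome 9 the NPC peak from 21045650 to 21046389 and the ESC peak from 21045606 to 21046428 both scored 3100 and were centred 2.5 bp apart. The best site of chromosome 15 had an NPC peak of 682 bp from 36466415 to 36467096 (score 3100) and an ESC peak of 700 bp from 36466478 to 36467177 (score 3138). On every autosome the best member scored at least 3100 on both sides. Chromosomes 3, 6, 14 and 16 had 1 such pair each and chromosome 2 had 12, and where several pairs of a chromosome were tied at 3100 the first by position is given.

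Strong pairs lay closer together than equal numbers of weaker pairs. Because spacing depends on how many sites are compared, all pairs were ranked by the worse of their 2 within-list percentiles, and the 2447 members were set beside the 2447 pairs next in rank, 2447 from the middle of the ranking and the 2447 last. The median spacing between neighbouring members was 269 kb (247 to 288), against 350 kb (325 to 382) for the next in rank, 504 kb (471 to 546) in the middle and 499 kb (466 to 546) for the last. With the limit at the top 5%, the difference from the class next in rank was lost, at 733 kb (616 to 815) for members and 747 kb for as many pairs next in rank. Mean spacings were nearly equal, at 961 kb for members and 968, 977 and 973 kb for the others, since each class has the same number of sites over the same chromosomes. Members therefore had both more short and more very long gaps. Of 2428 spacings between members, 107 were at most 10 kb and 558 were between 10 and 100 kb. The counts were 89 and 416 for the next in rank, 54 and 297 in the middle and 46 and 321 in the last class. Spacings above 5 Mb numbered 108 among members, 88 among the next in rank, 42 in the middle and 49 among the last.

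**Figure D1:**
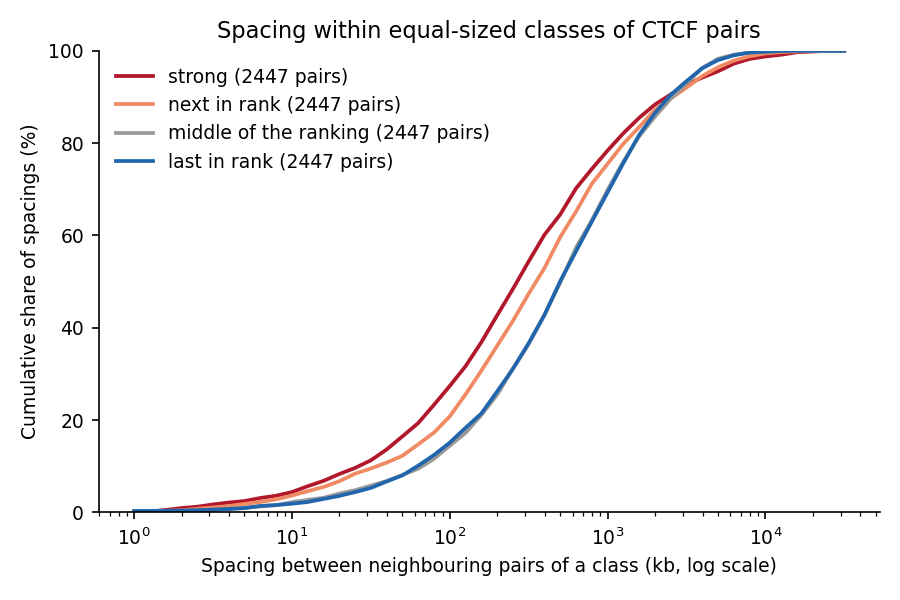
Cumulative share of spacings (vertical axis, percent) against the distance between neighbouring pairs of the same class (horizontal axis, kb, log scale) for 4 classes of 2447 pairs each. The curve of the strong pairs lies to the left up to about 1000 kb, with a median of 269 kb, and crosses the others at the longest distances, where strong pairs had 108 spacings above 5 Mb.

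Counted by site, 718 members (29.3%, 27.5 to 31.2) had another member within 50 kb. In the class next in rank 23.5% (21.8 to 25.2) had another of their own class that near, in the middle class 15.3% (13.9 to 16.8) and in the last class 15.2% (13.8 to 16.7). Within 1000 kb, 91.4% (90.2 to 92.5) of members had another member. Pairs that were top in NPC only were spaced like members, and those top in ESC only about like the class next in rank. The 2546 pairs strong in NPC only had a median spacing of 268 kb (238 to 290), and the 2684 strong in ESC only had 340 kb (314 to 366). A spacing as short as that of members was thus also found in pairs strong in NPC only. On chromosome 15, 27.4% of pairs were top in NPC, and the spacing of this class without that chromosome was not computed.

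The closest neighbours among members were separate peaks with midpoints 909 to 1262 bp apart. The smallest spacing was on chromosome 5, where NPC peaks from 125750869 to 125751536 (score 2152) and 125751796 to 125752437 (score 1753) had midpoints 909 bp from each other. The matching ESC peaks ended at 125751536 and began at 125751663, with scores of 1741 and 1737, so that 126 bp lay between them. On chromosome 6, members at 72484013 to 72484606 and 72485070 to 72485562 (NPC coordinates) were 999 bp apart. They scored 1433 and 1573 in the NPC list and 2495 and 2603 in the ESC list, so they stood near the limit in NPC and well above it in ESC. The next were on chromosome 12 (NPC peaks from 88108692 and from 88109838, 1184 bp apart), chromosome 6 (from 125553104 and from 125554355, 1192 bp) and chromosome 7 (from 86872956 and from 86873999, 1262 bp). No other pair lay between the members of any of these 5 couples.

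The 5 longest stretches between neighbouring members measured 19.9 to 22.3 Mb. On chromosome 4 no member was found between NPC peaks at 63140962 to 63141658 and 85465107 to 85465504, a distance of 22.3 Mb that held 137 other pairs. Of those, 8 had a top NPC peak and 4 a top ESC peak. On chromosome 12 the stretch from 60048160 to 81996747 spanned 21.9 Mb between midpoints and held 211 other pairs, of which 1 was top in NPC and 34 were top in ESC. Chromosome 14 had a stretch of 21.4 Mb (from 80615592) with 78 other pairs, chromosome 4 a second of 20.9 Mb (from 12167966) with 121, and chromosome 3 one of 19.9 Mb (from 58883040) with 152. Pairs top in NPC numbered 1, 3 and 6 in these last stretches, and pairs top in ESC 8, 5 and 15. CTCF pairs were thus present in all 5 stretches, but at a lower density than on their chromosomes as a whole. Chromosome 4 as a whole had 16.9 pairs per Mb. Among all 36144 other pairs, 2546 were top in NPC and 2684 were top in ESC. Against these shares, pairs top in NPC were less frequent in all 5 stretches. Pairs top in ESC were less frequent in both stretches of chromosome 4 and more frequent in those of chromosomes 3, 12 and 14. The counts are small, and no interval was computed for them.

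Members sat in regions rich in CTCF sites. A member had a median of 31 other 1-to-1 pairs within 500 kb (30 to 31), and one of the other pairs had 23 (23 to 23). The nearest pair of any strength was 7.88 kb away (7.33 to 8.43) for members and 11.6 kb (11.4 to 11.8) for other pairs. The classes most like the members were also in dense regions. Pairs top in NPC only had 29 others within 500 kb (28 to 30) and the nearest at 8.05 kb (7.59 to 8.60). For the class next in rank the values were 27 (26 to 28) and 8.17 kb, and for pairs top in ESC only 25 (25 to 26) and 8.97 kb (8.52 to 9.57). The share of members grew with the number of neighbours, from 1.82% (1.45 to 2.26) of pairs with at most 9 others within 500 kb, through 6.15% (5.69 to 6.64) with 20 to 29, to 10.5% (9.38 to 11.6) with 50 to 80. In the ranking by strength the count of neighbours was flat over most of its range and higher at its top: it was 22 in each of the 7 lowest of 10 equal bins, 24 and 25 in the next and 30 in the highest.

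**Figure D2:**
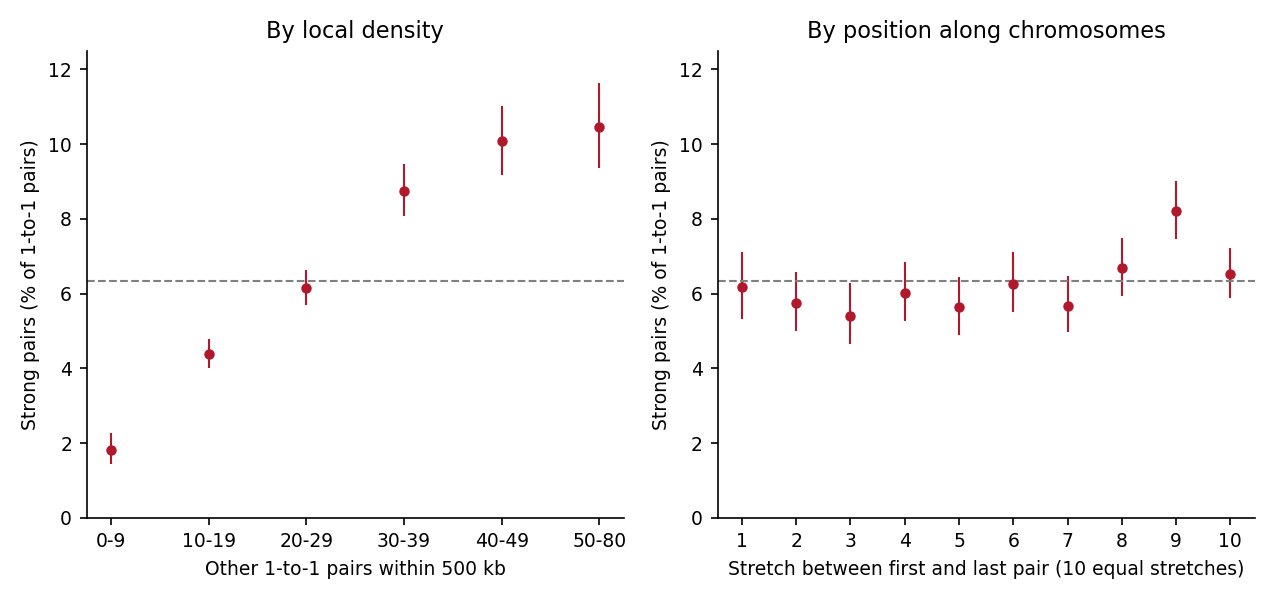
Share of 1-to-1 pairs that are strong (vertical axes, percent, with exact 95% intervals) by the number of other pairs within 500 kb (left) and by position in 10 equal stretches between the first and last pair of a chromosome, pooled over 19 autosomes (right). The dashed line is the overall 6.34%. The share climbs from 1.82% to 10.5% with local density, and along chromosomes stretch 9, at 8.22%, has an interval wholly above the line and stretch 3, at 5.41%, one wholly below it.

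Members were also next to each other more often than other pairs were next to a member when distance was set aside. Along the chromosome, 404 members (16.5%, 15.1 to 18.0) had a member as the next 1-to-1 pair on at least 1 side, against 4297 of the other pairs (11.9%, 11.6 to 12.2). This was not particular to members: 16.2% (14.8 to 17.7) of the class next in rank and 16.3% (14.9 to 17.8) of pairs top in NPC only also had a member as a direct neighbour, against 13.1% (11.8 to 14.4) of pairs top in ESC only. Part of this went with density. Among pairs with 10 to 19 neighbours within 500 kb the shares were 12.9% (10.0 to 16.3) of members and 8.27% (7.75 to 8.82) of other pairs, and with 50 to 80 neighbours they were 26.1% (21.3 to 31.4) and 19.5% (18.0 to 21.1). With 20 to 29 neighbours the order was turned round, at 10.5% (8.19 to 13.2) of members and 12.2% (11.5 to 12.8) of other pairs. In the remaining 3 density classes the members' share was higher but the intervals overlapped. Most members stood alone in this sense: 2043 had no member as a direct neighbour, 350 formed 175 couples, 42 formed 14 runs of 3 and 12 formed 3 runs of 4.

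Peaks found in 1 cell type only were also frequent around members. An NPC peak without any ESC overlap lay within 50 kb of 1346 members (55.0%, 53.0 to 57.0) and of 46.2% (45.6 to 46.7) of other pairs. An ESC peak without NPC overlap lay within 50 kb of 1527 members (62.4%, 60.4 to 64.3) and of 53.7% (53.2 to 54.2) of other pairs. The classes most like the members differed in these shares. An NPC-only peak was near 52.7% (50.7 to 54.7) of the class next in rank and 58.9% (57.0 to 60.8) of pairs top in NPC only. It was near 46.4% (44.5 to 48.3) of pairs top in ESC only, much as in other pairs. An ESC-only peak was near 59.95% (58.0 to 61.9) of the class next in rank. The values were 63.3% (61.5 to 65.2) for pairs top in ESC only and 58.0% (56.0 to 59.9) for pairs top in NPC only. Local density of pairs was higher around members than around other pairs, and its part in these shares was not tested.

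In windows of 1 Mb, members were spread unevenly. Of 2356 windows with at least 1 pair, 1321 held no member and 136 held 5 or more, and these 136 windows contained 860 members. The counts were 1195 and 88 for the class next in rank, 991 and 40 for the middle class and 1003 and 35 for the last. The window with most members was chromosome 11 from 94 to 95 Mb, where 13 of 49 pairs were members (26.5%, 14.9 to 41.1). Their NPC scores ran from 1493 to 2445 and their ESC scores from 1571 to 2545. The strongest NPC peak of this window lay at its start (94138217 to 94138830). The member whose NPC peak (94727405 to 94728389) scored 1753 had the strongest ESC peak (94727300 to 94728422, score 2545) and another member 3.73 kb further on. Spacings between these 13 sites ran from 1.58 to 272 kb with a median of 42.7 kb.

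Chromosome 15 from 78 to 79 Mb also held 13 members, of 57 pairs (22.8%, 12.7 to 35.8), and 31 of its pairs had a top NPC peak. In this window 5 members had an NPC score of 3100, and 1 of these (NPC 78277852 to 78279094, ESC 78277842 to 78279148) had 3100 in ESC as well. The median NPC score of the 13 was 2612 and the median ESC score 1792. The NPC peak was the wider one in 5 of the 13 and the ESC peak in 8, and the median widths were 801 bp in NPC and 756 bp in ESC. Chromosome 10 from 79 to 80 Mb held 12 members of 76 pairs (15.8%, 8.43 to 26.0), from an NPC peak at 79112132 to 79112655 to one at 79908597 to 79909331, and the neighbouring window from 80 to 81 Mb held another 10 of 72. These windows were picked for their counts.

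By relative position pooled over the autosomes, the share of members varied less than between chromosomes or density classes. Single segments varied more than whole autosomes did, but they hold fewer pairs, and smaller counts alone widen the scatter. Each autosome was divided into 10 equal stretches between its first and last pair. The first stretch held 7.11% of members and 7.32% of other pairs, and the last held 14.6% and 14.1%. The highest share was in stretch 9, with 413 of 5025 pairs strong (8.22%, 7.47 to 9.01), and the lowest in stretch 3 (5.41%, 4.64 to 6.27). These were the stretches whose intervals excluded 6.34%. Among 241 segments of 10 Mb with at least 50 pairs, the interval lay above 6.34% in 18 and below it in 22, and 15 segments held no member. Between 100 and 110 Mb of chromosome 9, 30 of 232 pairs were strong (12.9%, 8.90 to 17.9). Between 30 and 40 Mb of chromosome 2 the count was 33 of 277 (11.9%, 8.34 to 16.3), and between 80 and 90 Mb of chromosome 15 it was 37 of 317 (11.7%, 8.35 to 15.7). Chromosome 8 from 30 to 40 Mb had 98 pairs and no member, with an exact interval that reached 3.69% (3 counts of the total would be 3.06%). These segments were chosen after their values were seen.

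Between autosomes the share of members went from 4.52% (3.54 to 5.68) on chromosome 13 to 9.54% (8.24 to 11.0) on chromosome 15. Chromosome 11 was second with 251 members of 2882 pairs (8.71%, 7.70 to 9.80). These were the 2 chromosomes whose intervals lay above 6.34%, and chromosomes 1, 3, 6 and 13 lay below it. On chromosome 11 both lists were rich in top peaks, with 16.1% (14.7 to 17.5) of pairs top in NPC and 16.1% (14.8 to 17.5) top in ESC. On chromosome 15 the pairs were top in NPC in 27.4% (25.4 to 29.5) of cases, while 11.5% (10.0 to 13.0) were top in ESC.

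**Figure D3:**
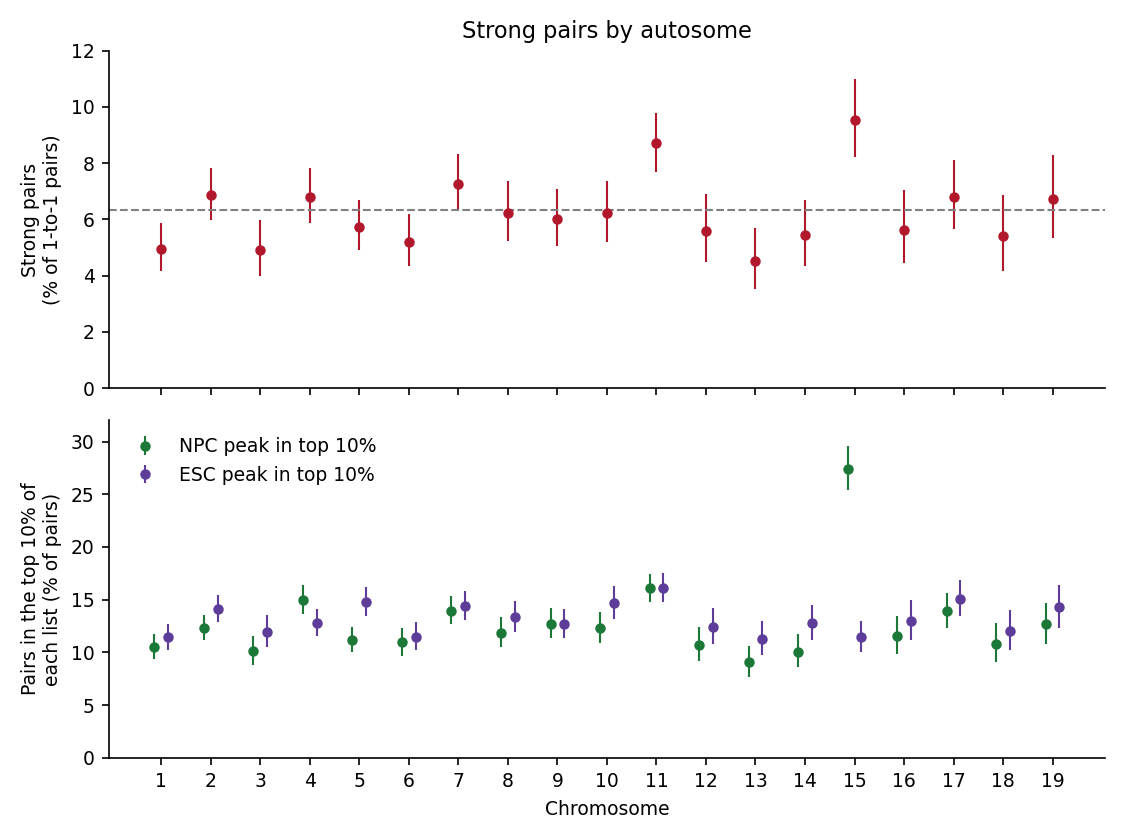
Upper panel: share of 1-to-1 pairs that are strong on each autosome (percent, exact 95% interval), with the overall 6.34% dashed. Lower panel: share of pairs whose NPC or ESC peak is in the top 10% of its list. Chromosomes 15 (9.54%) and 11 (8.71%) have the highest upper values, and chromosome 15 stands apart in the lower panel by its NPC value of 27.4%.

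Relative to the product of its own shares, chromosome 15 had the fewest members of any autosome, 3.04 times the 57.6 pairs that the product gives, while chromosome 13 had the most, 4.42 times. This ratio cannot exceed the inverse of the larger share, and the NPC share of chromosome 15 was the largest. The ratio is therefore bounded lower there, and its order across autosomes shows no shortage of members on chromosome 15. Without chromosome 15, members made up 6.18% of pairs. Chromosomes with denser pairs had larger shares of members, with Spearman's rho of 0.76 across 19 autosomes that share the same pair of libraries. Chromosome 11 had the densest pairs, 24.3 per Mb, and 2.11 members per Mb. Chromosome 13 had 13.2 pairs and 0.598 members per Mb, and its members had the longest median spacing of any autosome, 773 kb (405 to 1251), against 166 kb (129 to 258) on chromosome 15.

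The peaks of members were wide in both cell types. The NPC peak had a median width of 628 bp (623 to 633; interquartile range 566.5 to 712), against 453 bp (452 to 455) in other pairs. The ESC peak had a median of 780 bp (775 to 785; interquartile range 713 to 860), against 610 bp (608 to 612). The classes most like the members came closer. Median NPC widths were 605 bp for pairs top in NPC only, 579 bp for the class next in rank and 518 bp for pairs top in ESC only. Median ESC widths were 759 bp for pairs top in ESC only, 730 bp for the class next in rank and 681 bp for pairs top in NPC only. Width followed score throughout: over 10 equal bins of pairs from weakest to strongest the median NPC width went from 313 to 608 bp and the median ESC width from 443 to 760 bp. Width and score come from the same reads of the same peak, so the width of members describes them and is no independent measure of their strength. Within the members, rho between score and width was 0.43 in NPC and 0.40 in ESC, below the 0.79 and 0.78 of the other pairs. The score range of members is cut at both limits, so the lower rho does not show a looser tie of width to score. The 93 members at or above 3100 on both sides had median widths of 782 bp in NPC and 926 bp in ESC.

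The ratio of NPC to ESC width was higher in strong pairs than in other pairs, but the distances between their borders were alike. The NPC start lay a median of 71 bp (69 to 75) inside the ESC start in members and 73 bp (72 to 74) in other pairs. At the other end the medians were 70 bp (67 to 74) and 72 bp (71 to 73). The wider peaks of members enter the ratio directly. The median ratio of NPC to ESC width was 0.817 (0.811 to 0.824) in members and 0.756 (0.753 to 0.758) in other pairs. It stood at 0.797 (0.791 to 0.802) in the class next in rank, 0.757 in the middle and 0.708 (0.692 to 0.725) in the last. The ratio also followed which side was strong, being 0.893 (0.886 to 0.900) for pairs top in NPC only and 0.684 (0.678 to 0.690) for pairs top in ESC only. The NPC peak was the wider one in 199 members (8.13%, 7.08 to 9.29) and in 12.7% (12.4 to 13.1) of other pairs. In the class next in rank this share was 7.85% (6.81 to 8.98), near that of members. In 1761 members (72.0%, 70.1 to 73.7) the NPC peak lay wholly inside the ESC peak, much as in other pairs (70.8%, 70.3 to 71.3).

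**Figure D4:**
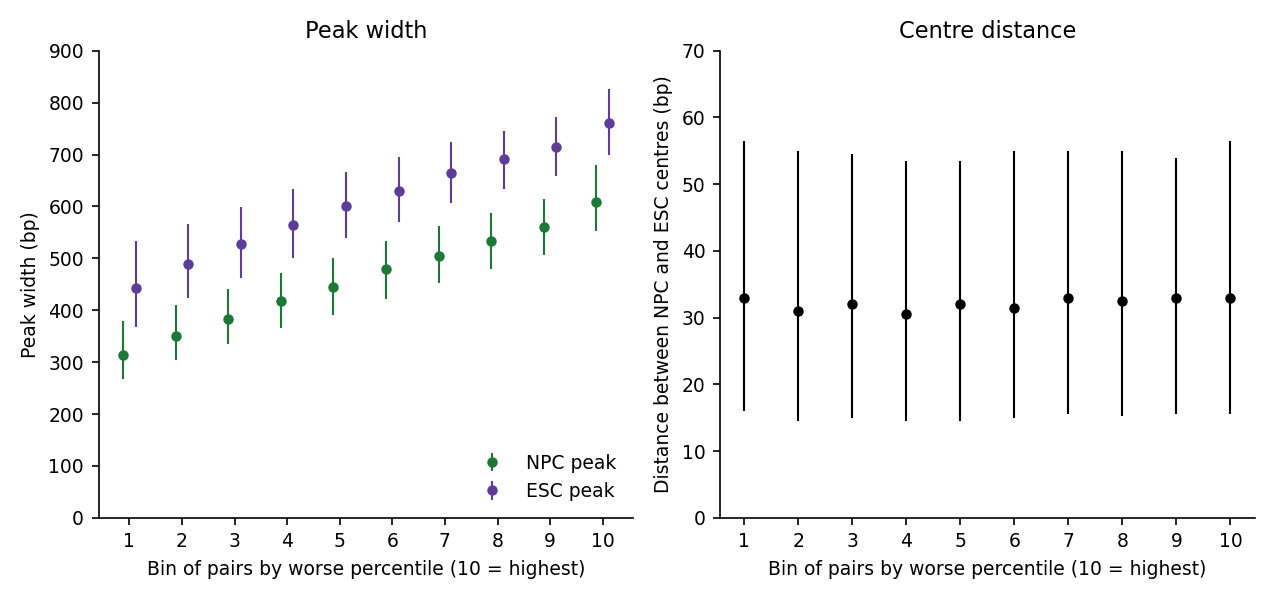
Left: width of the NPC and ESC peak (bp) in 10 equal bins of 1-to-1 pairs ranked by the worse of their within-list percentiles. Right: distance between NPC and ESC centres (bp) in the same bins. Points are medians and bars the interquartile range. Widths climb with strength to 608 bp in NPC and 760 bp in ESC, while the median centre distance stays between 30.5 and 33 bp.

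The centres of strong pairs did not lie closer together than those of other pairs. The centres of the NPC and ESC peaks of members were a median of 33 bp apart (31.5 to 34.5; interquartile range 15.5 to 57), and those of other pairs 32 bp (31.5 to 32.5; interquartile range 15 to 55). The medians of the next, middle and last classes were 33, 31.5 and 32 bp. Centres lay within 10 bp in 17.1% (15.6 to 18.6) of members and 17.0% (16.7 to 17.4) of other pairs, and over 100 bp apart in 143 members (5.84%, 4.95 to 6.85) and 4.89% (4.67 to 5.12) of other pairs. Neither direction prevailed, since the NPC centre was at the higher coordinate in 51.8% (49.8 to 53.8) of members and at the lower in 47.9% (45.9 to 49.9). The lists give no summits, so these centres are midpoints of peak borders.

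Set against the width of the peaks, the distance was smaller in members. It made up a median of 4.19% (4.01 to 4.35) of the ESC width in members, 5.36% (5.30 to 5.42) in other pairs and 7.43% (7.12 to 7.80) in the last class. The wider peaks of members enter this ratio directly. The shared stretch covered at least 50% of both peaks in 2431 members (99.3%, 98.9 to 99.6), against 92.7% (92.4 to 92.9) of other pairs. This share was 99.8% (99.5 to 99.9) for pairs top in NPC only and 89.9% (88.7 to 91.0) for pairs top in ESC only. Across members, rho between centre distance and the worse percentile was 0.06 (n = 2447) and between centre distance and ESC width 0.06, and in other pairs it was 0.01 and 0.04 (n = 36144).

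The members with the most distant centres had an NPC peak near 1 end of a broad ESC peak. The largest distance, 400.5 bp, was on chromosome 17, where an NPC peak of 933 bp (35411338 to 35412270, score 1568) lay nearly all within an ESC peak of 1722 bp (35410543 to 35412264, score 2319). On chromosome 5 the centres of an NPC peak of 773 bp (117955023 to 117955795, score 2727) and an ESC peak of 1494 bp (117954299 to 117955792, score 2376) were 363.5 bp apart. The others were on chromosome 2 (ESC 84637336 to 84638825, 342 bp), chromosome 7 (ESC 3183811 to 3184929, 309.5 bp) and chromosome 3 (ESC 30955418 to 30956713, 306 bp). In all 5 the ESC peak was the wider and the right-hand ends of the peaks were at most 67 bp apart.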

How the data were processed

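CTCF binding was measured by chromatin immunoprecipitation and sequencing on the SOLiD platform in 1 NPC and 1 ESC library, per the labels' protocols. The authors deposited 1 peak list per library, called with MACS per the file headers, on mm9 per the submitters' processing notes. Each peak has a score, the deposited value, with no definition. The sources used here name no aligner, threshold or MACS version. The track names end in CONTROL, but no control sample is described. The lowest scores were 100.01 in the NPC list and 100.02 in the ESC list.

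Peaks of the lists were intersected (at least 1 bp) and kept where the match was 1-to-1 on an autosome. The limit was the 90% quantile of score over the whole list, ties kept. A pair's position is the mean of its peak centres. Shares carry exact Clopper-Pearson 95% intervals and medians carry order-statistic intervals. Python 3.11.15, numpy 2.4.6, pandas 2.3.3, scipy 1.17.1 and matplotlib 3.10.9 were used, and the pairing and spacing steps were tested on simulated data. The members, classes and named regions were chosen with earlier results of these data known. Regions are named by rule: the best-ranked member per autosome, the 5 smallest and 5 largest spacings, the 3 fullest windows of 1 Mb, the 5 largest centre distances, and 3 pairs on each side of the limit. Alternatives were other score limits, other overlap rules and exclusions. Coordinates count from 1. Genome sequence and gene annotation of that build were not used here.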

Additional observations from a re-analysis of the deposited data

Results flagged for a closer look

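Chromosome X lies outside the choice of members. There, 4 of 1004 pairs that matched 1-to-1 were in the top 10% of both lists (0.398%, 0.109 to 1.02), and 10 had a top NPC peak and 5 a top ESC peak. The interval includes 0.299%, the share that 3 counts of the total would give. These 4 pairs were wide, with median widths of 1010.5 bp in NPC and 1130.5 bp in ESC, and their centres were a median of 77 bp apart.

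Strong peaks in overlaps that were not 1-to-1 were also left out: 122 top NPC peaks (2.37%, 1.97 to 2.83) and 251 top ESC peaks (4.63%, 4.09 to 5.23) on autosomes.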

How the results depend on the processing

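Changing the score limit moved most values, and the number of sites compared changes with it. The cause of the other shifts was not tested. With the top 5% of each list there were 998 strong pairs, with a median spacing of 733 kb, 15.7% with another within 50 kb, 7.92% with a strong next pair, a centre distance of 35 bp, widths of 672 bp in NPC and 819 bp in ESC, and a width ratio of 0.838. The spacing of an equal number of pairs next in rank was then 747 kb, so the difference in spacing from that class nearly vanished at this limit. With the top 20% there were 6098 strong pairs, 122 kb apart, with 49.0% and 34.8% for the same shares, widths of 591 and 744 bp and a ratio of 0.803, and the pairs next in rank were 168 kb apart.

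Without peaks scoring 3100 or more, spacing was 317 kb, the shares were 25.5% and 14.5%, widths 615 and 768 bp and the ratio 0.810. With centres within 100 bp as the pairing rule, spacing was 288 kb and centre distance 30.5 bp. With the top 10% taken within each chromosome, an alternative added after seeing the data, spacing was 291 kb (327 kb for the next in rank) and 27.3% had another within 50 kb. All values stayed within their intervals, and the counts within 1.5 times, with the limit taken on autosomal peaks, with 50% reciprocal overlap and without chromosome 15. In every one of these 8 settings members were wider than other pairs in both cell types, had a higher width ratio and more often had a strong next pair, while the median centre distance of members was 0.5 to 3 bp above that of other pairs. No paired analysis was possible because each cell type has 1 library, and no library could be left out. Sequencing depth is unknown, so how far it limits the scores cannot be said.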

Other observations

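Runs of 4 members with no other 1-to-1 pair between them were found at 3 places, chosen after their values were seen. On chromosome 12 the run spanned 36.1 kb, from an NPC peak at 113945141 to 113945808 to one at 113981248 to 113981934, with NPC scores of 2629, 1523, 2645 and 2308 and ESC scores of 1868, 1580, 2197 and 1660. On chromosome 4 the run spanned 41.5 kb, from 139158367 to 139200557 in NPC coordinates, and its second site had the highest scores, 2408 in NPC and 3100 in ESC. On chromosome 17 the run spanned 147 kb, and its inner sites, at 26146268 to 26147049 and 26148557 to 26149626 in NPC, were 2.43 kb apart. These inner sites scored 3008 and 3080 in NPC and 2960 and 2937 in ESC, and their NPC and ESC centres lay 0.5 and 1.5 bp apart, against 37 and 38.5 bp for the outer sites.

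The 93 members at or above 3100 in both lists had a median centre distance of 43 bp, against 33 bp over the 2136 members below 3100 in both lists. No interval was computed for these medians. All 234 members with an NPC peak at or above 3100 had a median of 34.75 bp, and all 170 with such an ESC peak 33 bp.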
